A study of Mus musculus with 30 samples.

Results

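The 7 genes described here encode intermediate filament proteins. Gfap, Vim, Nes and Synm encode the cytoplasmic filament proteins GFAP, vimentin, nestin and synemin, and Lmna, Lmnb1 and Lmnb2 encode the lamins of the nuclear lamina. They were taken as a named family, and no threshold on their values chose them, but earlier results of these data were known when they were chosen. Each gene is represented by the probe set with a single gene symbol and the highest mean over the 30 arrays, and its other single-symbol probe sets are shown as well. All 7 passed the filter on low values, out of 18193 genes with a single-symbol probe set, of which 15726 passed.

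Intermediate filaments are rope-like polymers of coiled-coil proteins that give a cell mechanical strength. GFAP is the main filament protein of mature astrocytes and the classic marker of reactive astrocytes. Vimentin and nestin are typical of immature astrocytes and neural progenitors and are known to return after injury, where they copolymerise with GFAP, and synemin joins such heteropolymers and does not form filaments alone. The lamins line the inner nuclear membrane. A-type lamins come from Lmna by alternative splicing, and B-type lamins come from Lmnb1 and Lmnb2.

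The study profiled total RNA of astrocytes sorted by fluorescence from brains of young adult male Tg(Aldh1l1-eGFP) OFC789Gsat mice on a Swiss Webster background, with 1 Affymetrix array per sample. In these mice GFP is driven by the regulatory region of Aldh1l1, an astrocyte enzyme gene, so the sorted cells are those with Aldh1l1 promoter activity, and all 8 groups carry the transgene. For the stroke groups the middle cerebral artery was blocked for 1 hour and then reopened (MCAO, middle cerebral artery occlusion), and the sham groups had the surgery without the occlusion. Astrocytes were taken at 1 day (5 MCAO and 4 sham arrays), 3 days (3 and 3) and 7 days (3 and 3). Systemic inflammation was produced by intraperitoneal lipopolysaccharide (LPS) at 5 mg/kg, with endotoxin-free saline as control, and both were taken at 1 day (5 LPS and 4 saline arrays). The labels call the samples of a group biological replicates without naming separate mice, so the p-values reflect only how far these samples scatter.

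The median intensity lay between 68 and 73 on every array but LPS array 5, where it was 94, and this array had a median correlation with the others of its group of 0.844, against 0.937 to 0.993 for the rest. The arrays also fell into a brighter set of 16 and a dimmer set of 14, with 99th percentiles of log2 intensity from 13.20 to 13.47 and from 12.80 to 13.11. All 1-day surgery arrays were in the brighter set and all 7-day arrays in the dimmer set, and each of the LPS, saline and 3-day groups held both. Aldh1l1, the gene of the sorting reporter, lay between 11.13 and 13.71 (log2 intensity) on all arrays and was not called in any comparison (differences from -0.31 to 0.07). Of 8 markers of microglia and macrophages 7 passed the filter on low values, and Itgam did not. Among the 7, the only call in a comparison with a control was Cd68, higher at 1 day after MCAO (1.98).

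The start regions of the 3 best known reactive filament genes are shown because their transcripts were all higher at 1 day after MCAO. Each run is the 250 bases before the annotated start, 5′ to 3′ on the gene's strand, from RefSeq on GRCm38.p6. Capitals mark matches, on either strand, to the letters TATAAA, known as the TATA motif, the letters CCAAT, known as the CCAAT box, and the letters GGGCGG, known as the GC box.
Gfap, chr11:102897201-102897450, minus strand: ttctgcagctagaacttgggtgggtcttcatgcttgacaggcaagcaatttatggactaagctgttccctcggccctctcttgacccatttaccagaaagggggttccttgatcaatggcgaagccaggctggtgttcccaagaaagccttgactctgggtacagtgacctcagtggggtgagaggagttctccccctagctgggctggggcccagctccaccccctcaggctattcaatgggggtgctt
Vim, chr2:13574061-13574310, plus strand: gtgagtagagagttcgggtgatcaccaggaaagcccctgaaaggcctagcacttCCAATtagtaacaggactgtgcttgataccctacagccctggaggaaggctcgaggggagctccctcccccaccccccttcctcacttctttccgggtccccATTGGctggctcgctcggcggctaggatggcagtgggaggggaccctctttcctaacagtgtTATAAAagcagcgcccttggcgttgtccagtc
Nes, chr3:87970843-87971092, plus strand: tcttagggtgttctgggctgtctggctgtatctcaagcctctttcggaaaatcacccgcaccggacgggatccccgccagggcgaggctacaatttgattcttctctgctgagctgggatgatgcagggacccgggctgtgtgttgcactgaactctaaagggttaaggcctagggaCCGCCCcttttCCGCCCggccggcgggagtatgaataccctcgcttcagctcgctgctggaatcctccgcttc
The Vim window held a TATA motif 32 bases before the start, a motif found in 12.4% of 32851 windows of the same length, and CCAAT boxes at 196 and 94 bases, a motif found in 33.8%. The Nes window held 2 GC boxes at 73 and 62 bases before the start, a motif found in 32.7% of windows. The Gfap window held none of these letters. A STAT motif (TTCNNNGAA, in 7.02% of windows) and an AP-1 motif (TGANTCA, in 6.75%) were searched on both strands too, and neither occurred in the windows of Gfap, Vim, Nes, Synm, Lmna or Lmnb2. These matches describe letters in a short window and leave out introns and distant enhancers. Lmnb1 was left out of this search, so nothing is said here about its start region.

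At 1 day after MCAO, 5 of the 7 genes were higher than after sham surgery: all 4 cytoplasmic filament genes and Lmna, by 3.22-fold to 8.68-fold. In the same comparison 6.49% of all genes tested were called higher, where called means an adjusted p below 0.05 in limma's moderated test with Benjamini-Hochberg adjustment over all 15726 genes. The B-type lamins had differences of 0.53 and 0.42 (log2) and were not called. The median log2 difference was 1.83 over the 4 cytoplasmic filament genes, 0.53 over the 3 lamins and -0.05 over all genes tested. In 5 of the 7 genes every MCAO array lay above every sham array, which held in this direction for 12.1% of all genes.

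Gfap read 14.24, 14.13, 13.92, 14.21 and 14.19 (log2 intensity) on the 5 MCAO arrays and 12.03, 12.60, 13.05 and 12.12 on the 4 sham arrays. The MCAO arrays were close together and all above the sham arrays. The log2 difference was 1.69 ± 0.40 (SE; adjusted p = 0.00486), or 3.22-fold. Vim read 13.23, 13.42, 13.07, 13.78 and 13.56 after MCAO and 9.71, 9.77, 11.76 and 9.94 after sham surgery. The groups did not overlap, and sham array 3 was the high one of its group. The log2 difference of 3.12 ± 0.49 (SE; adjusted p = 8.08e-05), or 8.68-fold, was the largest of the 7 genes. Without sham array 3 it was at its highest, 3.61.

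Nes read 10.56, 9.77, 9.96, 9.88 and 9.61 after MCAO and 7.82, 7.91, 8.15 and 8.12 after sham surgery. The groups were well apart, with a log2 difference of 1.96 ± 0.28 (SE; adjusted p = 1.94e-05). Synm read 8.97, 8.46, 7.84, 8.45 and 8.29 after MCAO and 6.02, 6.46, 8.07 and 6.29 after sham surgery. Sham array 3 was again the high sham array and lay above MCAO array 3, so the groups overlapped by 1 array. The Synm difference was 1.69 ± 0.38 (SE; adjusted p = 0.00299).

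Lmna read 10.17, 9.87, 9.76, 10.48 and 9.74 after MCAO and 7.58, 7.75, 8.17 and 7.69 after sham surgery. The groups did not overlap and differed by 2.21 ± 0.28 (log2, SE; adjusted p = 4.44e-06). This call belongs to the brightest probe set and is not shared by all probe sets of Lmna, as described further down. Lmnb1 read 8.29, 7.77, 7.83, 8.25 and 7.72 after MCAO and 7.18, 7.50, 7.45 and 7.62 after sham surgery. Every MCAO array was above every sham array, but the difference of 0.53 ± 0.20 was not called (adjusted p = 0.0896). With only the 1-day surgery arrays in the fit Lmnb1 was called, unpaired at 0.53 (adjusted p = 0.0191) and paired by the number in the descriptions at 0.46 (adjusted p = 0.0327). Those fits called 5180 and 5136 genes in either direction, against 1991 in the fit over all 8 groups. Lmnb2 read 7.57, 6.98, 6.97, 7.47 and 6.83 after MCAO and 6.88, 6.64, 6.82 and 6.64 after sham surgery. These groups overlapped, and the difference of 0.42 (95% interval -0.01 to 0.84) was not called (adjusted p = 0.223).

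The summed intensity of 10 astrocyte markers was lower at 1 day after MCAO, at 108529 to 126272 against 139025 to 151617 after sham surgery, without overlap. Of these 10 genes Slc1a3 and Gjb6 were called lower, and none higher. Over all 15726 genes 970 were called lower and 1021 (6.49%) higher in this comparison. Among the markers of other cell types 4 were called higher at 1 day: Cd68 of microglia and macrophages (1.98, 1 of 7 tested), S100a8 of neutrophils and monocytes (0.87, 1 of 5), Vwf of endothelial cells (1.57, 1 of 7) and Tagln of pericytes and smooth muscle (1.53, 1 of 8). Cnp of oligodendrocytes was lower (-0.69, 1 of 6). The summed levels of these lists overlapped between the groups, at 723 to 1313 after MCAO against 634 to 1357 after sham surgery for microglia, 273 to 315 against 244 to 290 for neutrophils, 1211 to 7371 against 1794 to 7043 for endothelial cells, 3373 to 7429 against 5354 to 7791 for pericytes, and 12301 to 27229 against 16644 to 34971 for oligodendrocytes. In sorted bulk samples fewer cells of a type and less RNA per cell cannot be told apart. Sham array 3 had the highest neuron and endothelial marker sums of its group, at 10695 and 7043 against 2559 to 3159 and 1794 to 2179 on the other sham arrays. MCAO array 4 stood apart in the same lists, at 7871 and 7371 against 2196 to 2919 and 1211 to 2942, and had the highest Vim and Lmna readings of its group. Both arrays carry the same number in their descriptions. Without both, the same number of the 7 genes was called (5), with differences of 1.87 for Gfap, 3.51 for Vim, 2.03 for Nes, 2.13 for Synm and 2.21 for Lmna. The part of the other markers in the filament values was not tested.

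**Figure D1:**
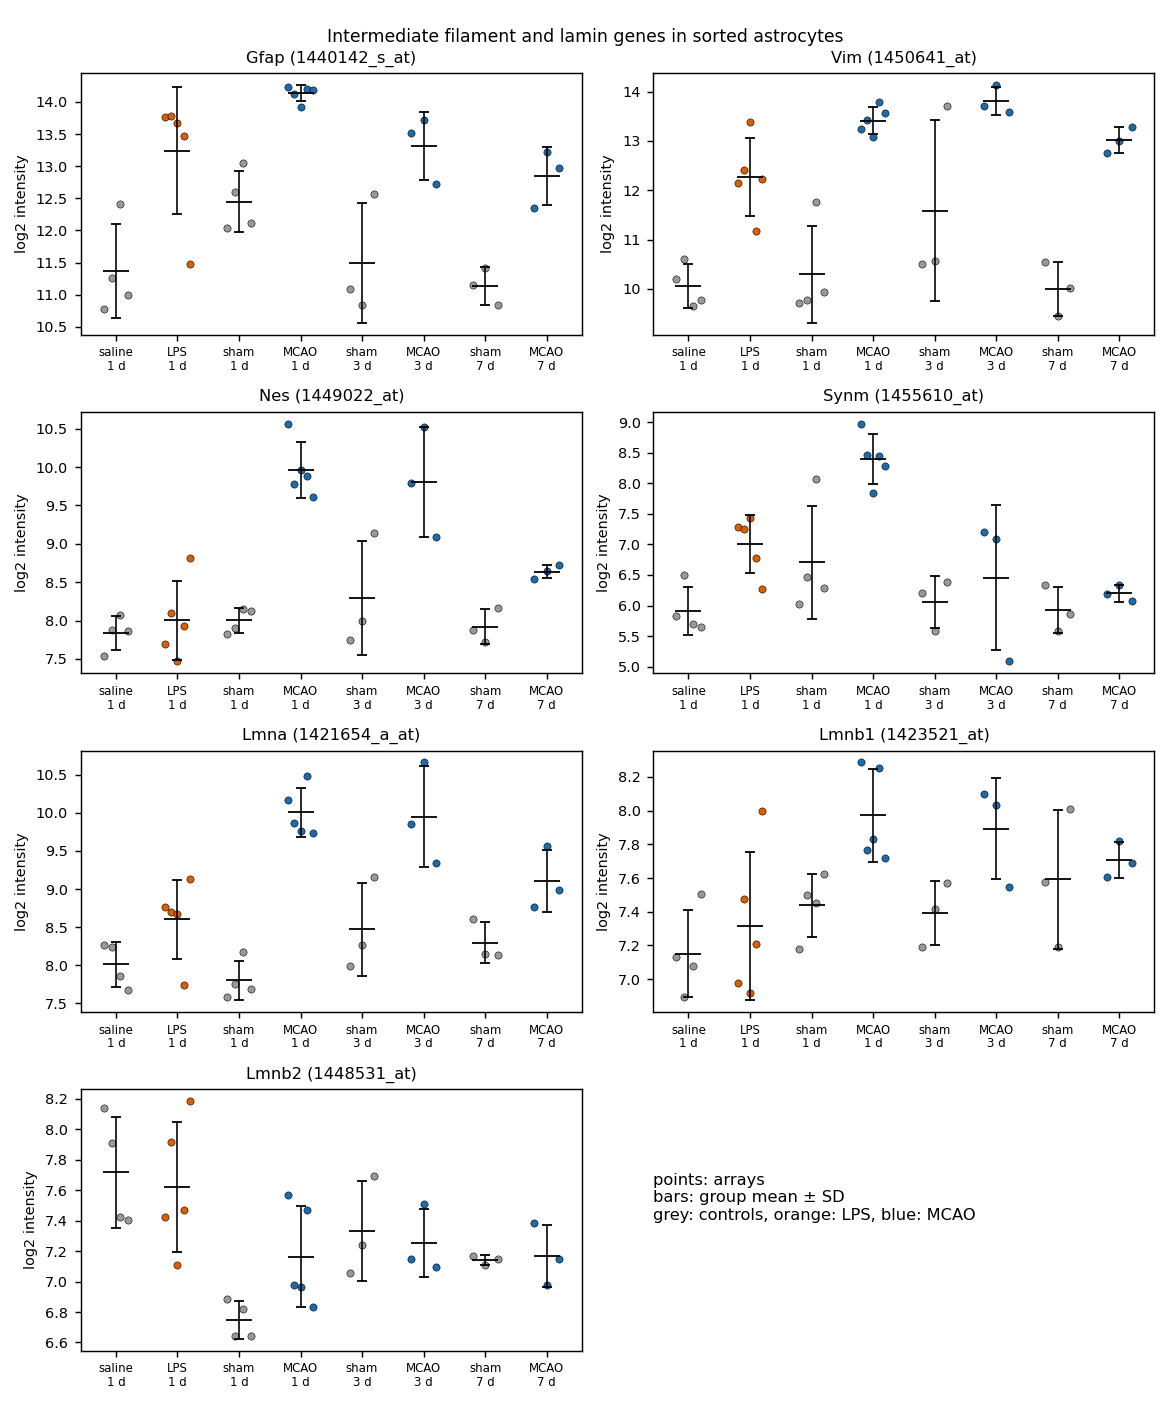
Log2 intensity of the brightest probe set of each gene (vertical axes, each with its own range) on all 30 arrays, by group. Points are arrays, and bars show the group mean ± SD. The 5 Gfap values after MCAO at 1 day lie between 13.92 and 14.24, while LPS array 5 (11.48) lies apart from its group, as do sham array 3 at 1 day and sham array 3 at 3 days for Vim.

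At 3 days 2 of the 7 genes were called higher after MCAO, Nes and Lmna, against 0.61% of all genes. Gfap and Vim had differences of 1.82 and 2.22 (log2) that were not called. In 2 of the 7 genes, Gfap and Lmna, the arrays did not overlap and MCAO was higher, against 5.74% of all genes. Nes read 9.79, 10.52 and 9.09 after MCAO and 7.74, 7.99 and 9.14 after sham surgery. Sham array 3 lay above MCAO array 3, and the difference was 1.51 ± 0.34 (SE; adjusted p = 0.0327). Lmna read 9.86, 10.66 and 9.34 after MCAO and 7.99, 8.26 and 9.15 after sham surgery. The groups did not overlap, with a difference of 1.48 ± 0.34 (SE; adjusted p = 0.0346). With the 3-day arrays fitted alone neither call stood (adjusted p = 0.437 for both).

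Vim read 13.70, 14.13 and 13.58 on the 3-day MCAO arrays and 10.49, 10.57 and 13.71 on the sham arrays. Sham array 3 was at the level of the MCAO arrays, and the difference of 2.22 ± 0.60 was not called (adjusted p = 0.0879). Without that sham array Vim differed by 3.28 (adjusted p = 0.0005) and Gfap by 2.35 (adjusted p = 0.00972). Gfap read 13.51, 13.72 and 12.72 after MCAO and 11.09, 10.84 and 12.56 after sham surgery, with array 3 of both groups nearest to the other group (difference 1.82 ± 0.49; adjusted p = 0.083). Without MCAO array 3 Gfap differed by 2.12 and was called (adjusted p = 0.024). Leaving out any of the other 4 arrays of the comparison left neither Nes nor Lmna called.

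Both arrays numbered 3 were in the brighter set at 3 days and the other 4 in the dimmer set. Within the dimmer set alone, 5 of the 7 genes were called, with differences of 3.39 for Vim (adjusted p = 0.000341), 2.65 for Gfap (adjusted p = 0.0161) and 1.25 for Synm (adjusted p = 0.0234). That fit called 867 of all genes in either direction, against 106 in the fit over all 8 groups. Within the brighter set, with 1 array per group and no test, the differences were -0.13 for Vim, 0.16 for Gfap, -0.04 for Nes, 0.18 for Lmna and -1.30 for Synm. The 3-day differences of these 5 genes were thus larger among the 4 dimmer arrays than within the brighter pair. With 1 brighter array per group, the brightness set cannot be told apart from the state of those single samples. Sham array 3 also had the highest sums of oligodendrocyte precursor, fibroblast and neural progenitor markers among the 3-day sham arrays, at 6175, 9920 and 2163 against 670 to 693, 1501 to 1874 and 335 to 526, and the part of these cells in its Vim level was not tested. The endothelial marker sum was the only 1 of 11 lists whose arrays did not overlap at 3 days (653 to 855 after MCAO, 495 to 562 after sham surgery), and 0 of its 7 genes were called. Of the 8 pericyte and smooth muscle markers Tagln was called higher (2.46 ± 0.48, adjusted p = 0.0147), with sums of 3247 to 6839 after MCAO and 3943 to 5929 after sham surgery, and its part in the filament values was not tested.

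Synm read 7.20, 7.09 and 5.09 at 3 days after MCAO and 6.21, 5.58 and 6.39 after sham surgery. The MCAO arrays lay on both sides of the sham arrays, and the difference was 0.40 (95% interval -0.56 to 1.35; adjusted p = 0.976). Lmnb1 read 8.10, 8.03 and 7.55 against 7.19, 7.42 and 7.57 (difference 0.50, adjusted p = 0.542). Lmnb2 differed by -0.08 (adjusted p = 0.999), with all MCAO arrays inside the sham range.

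At 7 days 0 of the 7 genes were called by limma, against 0.0254% (4 genes) of all genes called higher. At an unadjusted p below 0.05, 4 of the 7 were higher, where 2.62% of all genes passed in either direction. Those 4, Gfap, Vim, Nes and Lmna, were also the ones in which every MCAO array lay above every sham array, which held for 9.65% of all genes. Vim read 12.76, 13 and 13.29 after MCAO and 10.55, 9.45 and 10.01 after sham surgery. The groups were far apart, and the difference of 3.01 ± 0.60 (8.06-fold) fell just short of the threshold (adjusted p = 0.0536). Vim was called in 9 of 13 other ways of fitting the data, among them with the 7-day arrays fitted alone (adjusted p = 0.00406), and 2 of these 9, the blocks by title and by description number, are the same fit at 7 days. In the 6 fits that each left out 1 of the 7-day arrays it was not called (adjusted p of 0.121 to 0.463). Gfap read 12.35, 13.23 and 12.98 after MCAO and 11.15, 11.41 and 10.84 after sham surgery, a difference of 1.72 ± 0.49 without overlap (adjusted p = 0.417). Fitted alone, these arrays gave an adjusted p of 0.0185.

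Nes read 8.55, 8.65 and 8.72 at 7 days after MCAO and 7.88, 7.71 and 8.16 after sham surgery. The difference was 0.72 ± 0.34 (adjusted p = 1). Lmna read 8.77, 9.56 and 8.99 against 8.61, 8.15 and 8.13, a difference of 0.81 ± 0.34 (adjusted p = 1). Synm read 6.19, 6.34 and 6.07 against 6.34, 5.58 and 5.86, with overlap and a difference of 0.27. The B-type lamins differed by 0.11 (Lmnb1) and 0.03 (Lmnb2). Of 11 marker lists, 5 had higher sums on every MCAO array than on every sham array at 7 days. The oligodendrocyte precursor sum was 2102 to 2724 against 650 to 895 (1 of 6 tested genes called, C1ql1), and the fibroblast sum 2198 to 5470 against 1180 to 1770 (0 of 6 called). The neural progenitor sum was 853 to 1753 against 360 to 760 (0 of 5 called). The pericyte and smooth muscle sum was 4005 to 4771 against 3359 to 3680 (0 of 8 called), and the neutrophil and monocyte sum 279 to 306 against 247 to 262 (0 of 5 called). Pdgfra is in both the precursor and the fibroblast list, and Cspg4 in both the precursor and the pericyte list. Vimentin and nestin are also made by several of these cells, and the part of such cells in the 7-day values was not tested.

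The change of the MCAO effect with time was tested directly, as the difference between differences. By limma none of the 7 genes was called between 1 and 3 days (0.00636% of all genes), between 3 and 7 days (0% of all genes, with 274 genes at an unadjusted p below 0.05) or between 1 and 7 days (0.356% of all genes). From 1 to 7 days the effect changed by 0.03 for Gfap (95% interval -1.27 to 1.33) and by -0.11 for Vim (-1.70 to 1.49). At an unadjusted p below 0.05 the effects of 1 gene changed between 1 and 3 days (Synm), of 0 between 3 and 7 days, and of 3 between 1 and 7 days, where 5.99%, 1.74% and 8.6% of all genes passed. For these 3 the change from 1 to 7 days was -1.24 for Nes (-2.14 to -0.35), -1.42 for Synm (-2.65 to -0.19) and -1.40 for Lmna (-2.29 to -0.50), with adjusted p of 0.303, 0.459 and 0.215. With only the 1-day and 7-day surgery arrays in the fit, Nes (adjusted p = 0.00914) and Lmna (adjusted p = 0.0119) were called. Day and brightness set are the same division between 1 and 7 days, so the time and the set cannot be told apart there.

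**Figure D2:**
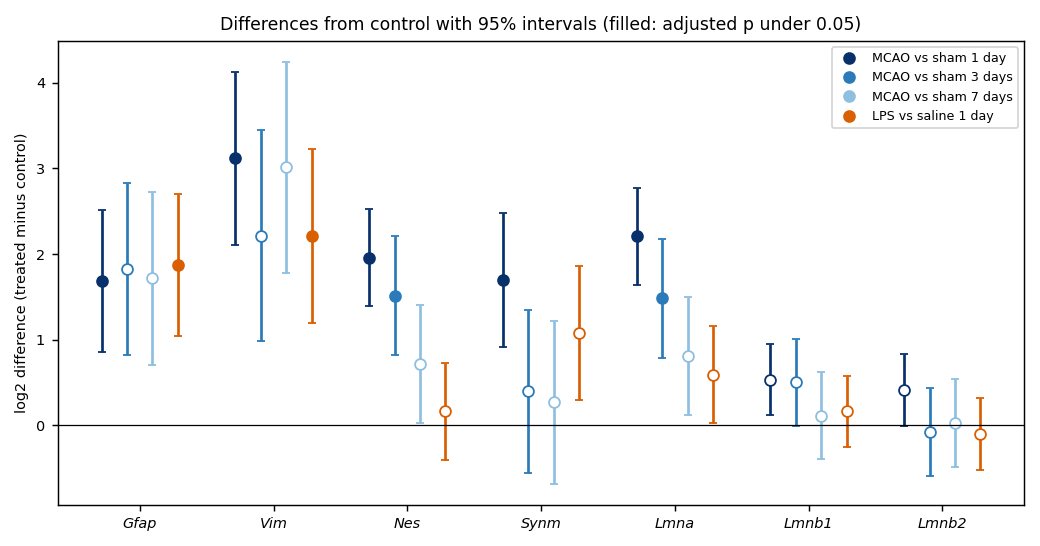
Log2 difference from the matching control for each gene (vertical axis) in the 4 comparisons. Points are estimates over 3 to 5 treated and 3 or 4 control arrays, lines are 95% intervals, and filled points have an adjusted p below 0.05. Vim lies at 3.12, 2.22 and 3.01 over the 3 MCAO times, while Nes goes from 1.96 to 0.72 and Synm from 1.69 to 0.27 between 1 and 7 days, changes that were not called.

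At 1 day after LPS 2 of the 7 genes were higher than after saline, Gfap and Vim, against 2.37% of all genes. The differences of Nes and the B-type lamins were between -0.10 and 0.17 (log2). Only Vim among the 7 had every LPS array above every saline array, against 1.88% of all genes. The median log2 difference was 1.48 over the 4 cytoplasmic filament genes, 0.16 over the 3 lamins and 0.07 over all genes.

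Gfap read 13.77, 13.79, 13.68, 13.47 and 11.48 on the LPS arrays and 10.78, 11.26, 12.42 and 11.00 on the saline arrays. LPS array 5 lay within the saline range and the other LPS arrays above it. The difference was 1.87 ± 0.40 (SE; adjusted p = 0.00747). Vim read 12.16, 12.41, 13.39, 11.18 and 12.22 after LPS and 10.21, 10.61, 9.65 and 9.77 after saline, without overlap, a difference of 2.21 ± 0.49 (SE; adjusted p = 0.0101). Both calls stood when any single array was left out. Within the brighter set alone (LPS arrays 1, 2 and 3 with saline arrays 1 and 2) Gfap differed by 2.72 and was called. Within the dimmer set alone (LPS arrays 4 and 5 with saline arrays 3 and 4) Gfap differed by 0.77 and was not called (adjusted p = 0.356). With the LPS and saline arrays fitted alone Gfap was not called either (adjusted p = 0.253).

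Synm read 7.28, 7.25, 7.43, 6.78 and 6.27 after LPS and 5.83, 6.49, 5.70 and 5.64 after saline. In 4 of 5 LPS arrays it was above all saline arrays, and the difference of 1.08 ± 0.38 was not called (adjusted p = 0.131). Nes read 7.69, 8.10, 7.47, 7.93 and 8.81 after LPS and 7.54, 7.88, 8.07 and 7.86 after saline. The groups overlapped, and the difference was 0.17 (95% interval -0.40 to 0.73; adjusted p = 0.815). Lmna read 8.77, 8.70, 8.68, 7.73 and 9.13 after LPS and 8.27, 8.24, 7.86 and 7.67 after saline, a difference of 0.59 ± 0.28 (adjusted p = 0.281). Lmnb1 read 6.98, 7.48, 6.92, 7.21 and 7.99 against 7.13, 6.89, 7.08 and 7.51 (difference 0.16, adjusted p = 0.74). Lmnb2 read 7.43, 7.92, 7.11, 7.47 and 8.18 against 8.14, 7.91, 7.43 and 7.40 (difference -0.10, adjusted p = 0.858). Among the markers of other cell types Rgs5 of pericytes and smooth muscle was called higher after LPS (1.98 ± 0.41, adjusted p = 0.00602; 1 of 8 tested), with list sums of 2226 to 6854 after LPS and 3807 to 5720 after saline, and its part in the filament values was not tested. LPS array 5 was the highest LPS array for Nes and all 3 lamins and the lowest for Gfap and Synm.

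The MCAO and LPS effects at 1 day, each against its own control, were compared in 1 test. Nes (1.79 ± 0.39, SE; adjusted p = 0.0188) and Lmna (1.61 ± 0.39, SE; adjusted p = 0.0332) had a larger effect of MCAO than of LPS, 2 of 7 genes against 1.39% of all genes. The other differences of effects were -0.19 for Gfap (95% interval -1.35 to 0.98), 0.91 for Vim (-0.53 to 2.34), 0.61 for Synm (-0.50 to 1.72), 0.37 for Lmnb1 and 0.51 for Lmnb2, none of them called. The Lmna call was lost on leaving out any of 8 of the 18 arrays (saline 2 or 3, sham 1, 2 or 4, MCAO 1, 2 or 4; adjusted p of 0.0507 to 0.0828), and it depended on the probe set. The Nes call stood on leaving out each of the 18 arrays.

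The means of the control groups were not alike, but the order of groups given here and for the other genes was not tested. All 1-day sham arrays were in the brighter set and all 7-day sham arrays in the dimmer set. Day and brightness set therefore cannot be told apart between them. Gfap averaged 11.14 ± 0.29 (SD, n = 3) in 7-day sham, 11.37 ± 0.73 (n = 4) in saline, 11.49 ± 0.93 (n = 3) in 3-day sham and 12.45 ± 0.47 (n = 4) in 1-day sham astrocytes. Above these stood 7-day MCAO (12.85 ± 0.45, n = 3), LPS (13.24 ± 0.99, n = 5), 3-day MCAO (13.32 ± 0.52, n = 3) and 1-day MCAO (14.14 ± 0.13, n = 5). Each of these neighbours overlapped except 3-day and 1-day MCAO. Vim was lowest in 7-day sham (10.00 ± 0.55), saline (10.06 ± 0.44) and 1-day sham (10.30 ± 0.98), followed by 3-day sham (11.59 ± 1.83), LPS (12.27 ± 0.79), 7-day MCAO (13.02 ± 0.27), 1-day MCAO (13.41 ± 0.28) and 3-day MCAO (13.81 ± 0.29). All of these neighbours overlapped.

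Nes kept within 7.84 and 8.29 in the means of the 4 control groups and LPS, was 8.64 ± 0.09 in 7-day MCAO and was highest in 3-day (9.80 ± 0.72) and 1-day MCAO (9.96 ± 0.36). The gap between 7-day and 3-day MCAO was the only one without overlap. Synm had its highest mean in 1-day MCAO (8.40 ± 0.41), with no overlap to the next group, LPS (7.00 ± 0.48), and its lowest in saline (5.92 ± 0.39). Lmna was lowest in 1-day sham (7.80 ± 0.26) and highest in 3-day (9.95 ± 0.67) and 1-day MCAO (10.01 ± 0.32), and all neighbouring groups overlapped. Lmnb1 group means spanned 7.15 in saline to 7.97 in 1-day MCAO. Lmnb2 was ordered differently, with its highest means in saline (7.72 ± 0.36) and LPS (7.62 ± 0.43) and its lowest in 1-day sham (6.75 ± 0.12), the only group of the 8 that did not overlap the next one.

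The 3 Gfap probe sets moved the same way and by unequal amounts. Probe set 1426508_at differed by 2.73 ± 0.46 at 1 day after MCAO, 2.34 at 3 days, 2.45 at 7 days and 2.07 after LPS. Probe set 1426509_s_at gave 2.92 ± 0.50, 2.79, 2.36 and 2.90. The brightest set, 1440142_s_at, gave 1.69, 1.82, 1.72 and 1.87, the smallest value of the 3 in every comparison. In a fit with every probe set as its own row all 3 were called at 1 day after MCAO and after LPS, and 1426509_s_at also at 3 days (adjusted p = 0.0303). On LPS array 5 the brightest set read 11.48 and 1426508_at read 8.97, each the lowest of its group, while 1426509_s_at read 11.17, the highest of its group. Each of the other sets had a Pearson r of 0.75 with the brightest over the 30 arrays, which share groups and brightness sets.

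The 3 Vim probe sets were closer to each other after MCAO, with differences of 3.12, 2.94 and 3.18 at 1 day, 2.22, 2.19 and 2.51 at 3 days and 3.01, 3.11 and 3.57 at 7 days for 1450641_at, 1438118_x_at and 1456292_a_at. The last of these was called at 7 days (adjusted p = 0.0414). After LPS they gave 2.21 (adjusted p = 0.0113), 0.98 (adjusted p = 0.401) and 1.89 (adjusted p = 0.0537). LPS array 5 read 12.22, 9.51 and 11.87 on these sets, so it was near its group on 1450641_at and 1456292_a_at and below all saline arrays on 1438118_x_at. The ending x in a probe set name marks probes that can match other transcripts. All 3 sets showed sham array 3 high at 1 day (11.76, 11.83 and 11.19) and at 3 days (13.71, 13.02 and 12.75).

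**Figure D3:**
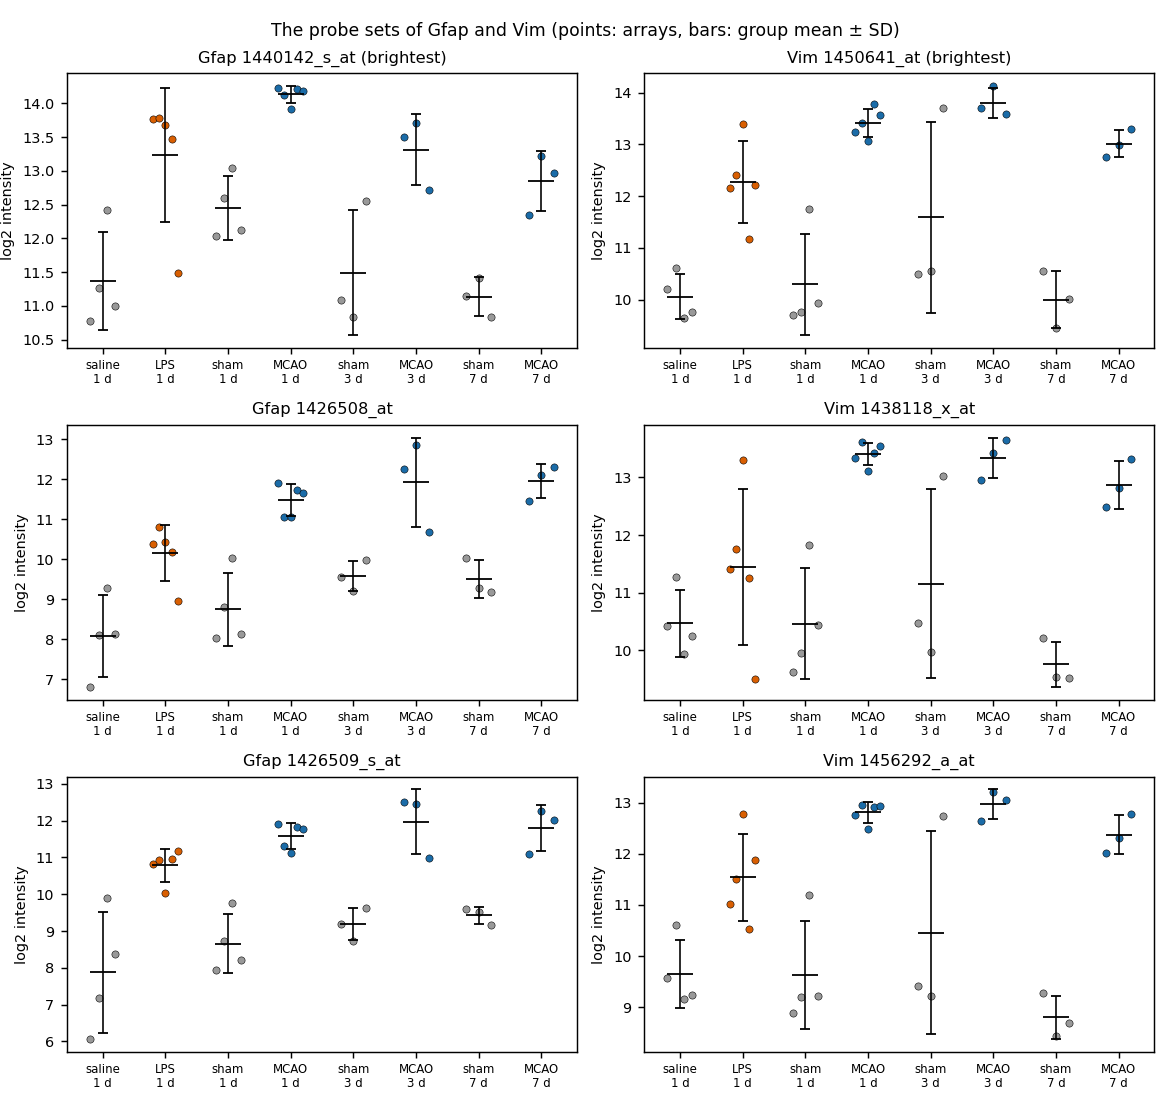
Log2 intensity (vertical axes, each with its own range) of the 3 probe sets of Gfap and the 3 of Vim on the 30 arrays, by group. Points are arrays, and bars show the group mean ± SD. LPS array 5 is low on 2 Gfap sets (11.48 and 8.97) and not on 1426509_s_at (11.17), and sham array 3 at 3 days is high on all 3 Vim sets.

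The other probe sets of Nes gave larger differences at 1 day after MCAO than the brightest set, 2.49 ± 0.30 for 1418289_at and 2.75 ± 0.30 for 1453997_a_at against 1.96. At 7 days 1453997_a_at read 4.58, 4.52 and 4.81 after MCAO and 4.46, 4.64 and 4.91 after sham surgery, with a difference of -0.03. These readings lay below 5, the level of the filter on low values. The 1-day sham readings of 1453997_a_at (4.39 to 4.70) lay below it too. This set reached 5 on 9 arrays, among them every 1-day MCAO array (7.14 to 7.50). The size of its 1-day difference is therefore uncertain. After LPS the 3 Nes sets differed by 0.17, 0.23 and 0.06. The 0.06 belongs to 1453997_a_at, which read 4.32 to 5.32 after LPS and 4.25 to 4.64 after saline. So close to the filter level it cannot show whether Nes changed. The second Synm set, 1457275_at, gave 1.57 ± 0.40 at 1 day after MCAO (adjusted p = 0.0104) and 1.44 ± 0.40 after LPS (adjusted p = 0.0506).

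After MCAO the probe sets of Lmna disagreed widely. At 1 day 1421654_a_at differed by 2.21 and 1457670_s_at by 1.62 ± 0.42 (adjusted p = 0.0111), while 1425472_a_at differed by 0.44, 1426868_x_at by 0.07 and 1452212_at by 0.02, none of these called. Set 1426868_x_at lay near the filter level of 5, with 1-day means of 5.03 after MCAO and 4.96 after sham surgery. It reached that level on 12 of 30 arrays. After LPS the 5 sets lay between 0.02 and 0.59. Set 1452212_at read 6.54, 6.36, 6.30, 6.34 and 6.17 after MCAO and 6.49, 6.41, 6.07 and 6.32 after sham surgery, with overlapping groups. The Pearson r of these sets with the brightest ran from -0.02 for 1452212_at to 0.80 for 1457670_s_at over the 30 arrays. The part of each transcript that a set covers is not given in the sources used here, so which lamin transcript changed cannot be told. The second Lmnb1 set, 1423520_at, differed by 0.42, 0.78 and -0.08 at the 3 times after MCAO and by 0.24 after LPS, none of them called. The second Lmnb2 set, 1451849_a_at, did not pass the filter on low values.

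**Figure D4:**
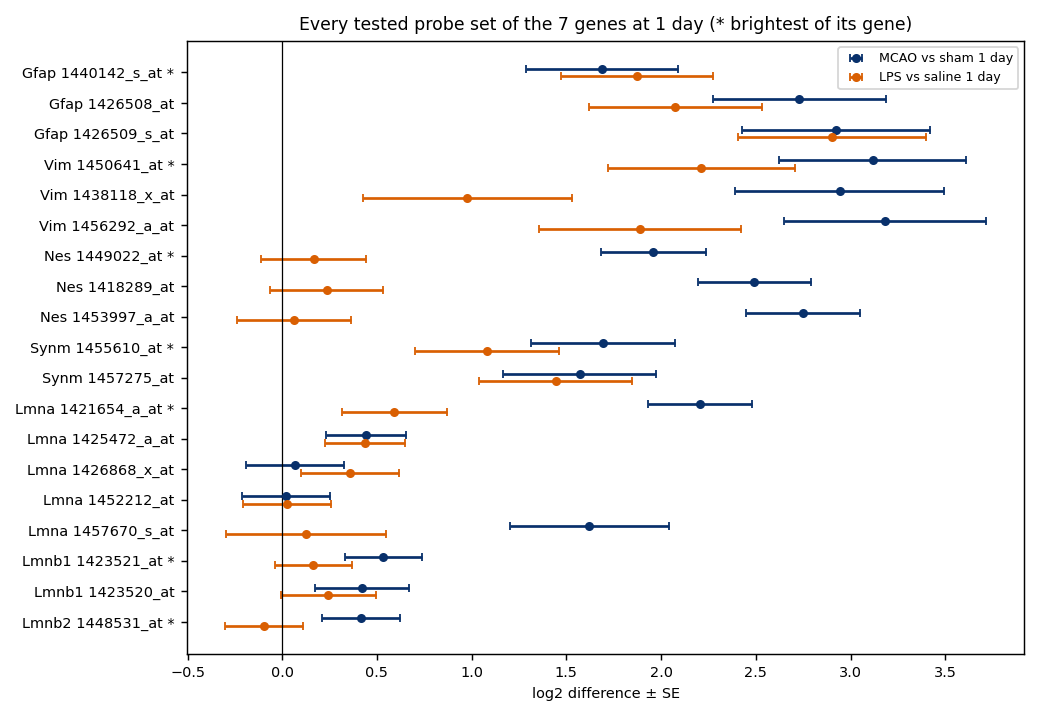
Log2 difference ± SE (horizontal axis) of the 19 tested probe sets of the 7 genes at 1 day, for MCAO against sham and LPS against saline. An asterisk marks the brightest set of a gene. The 5 Lmna sets spread from 0.02 to 2.21 after MCAO, whereas the 3 Vim sets lie between 2.94 and 3.18.

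The filament genes were set beside 5 lists of related genes. Of 17 other intermediate filament genes (neurofilaments, desmin, peripherin, keratins and lens filaments) 14 were tested, and 1 was higher at 1 day after MCAO: Prph, which encodes peripherin, by 0.69 ± 0.20 (adjusted p = 0.0239). Over all genes tested, 6.49% were called higher in that comparison. None of the list was called in the other 3 comparisons. The list's median difference at 1 day after MCAO was -0.04, near the -0.05 of all genes.

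All 13 linkers and partners of filaments were tested. At 1 day after MCAO 3 were higher and 2 lower, where 1021 and 970 of all 15726 genes were. Hspb1, a small heat shock protein that binds filaments, was higher by 4.22 ± 0.52 (adjusted p = 3.90e-06), Plec, which encodes the linker plectin, by 1.51 ± 0.28 (adjusted p = 0.00057), and Cryab, the small heat shock protein αB-crystallin, by 1.10 ± 0.37 (adjusted p = 0.0469). Dtna, which encodes a dystrobrevin, was lower by a log2 difference of -0.98 ± 0.26 (adjusted p = 0.0119), and Dag1, which encodes dystroglycan, by -0.63 ± 0.16 (adjusted p = 0.0104). Hspb1 was the only one of the list called in the other comparisons, at 3 days after MCAO (2.66 ± 0.64, adjusted p = 0.0443) and after LPS (3.28 ± 0.52, adjusted p = 0.000302).

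All 21 partners of the lamina and nuclear envelope (such as Lbr, Emd, Tmpo, Sun1, Syne2 and the farnesylation enzymes) were tested, and 0 were called by limma in any of the 4 comparisons with a control. At an unadjusted p below 0.05 there were 1, 2 and 1 of 21 at 1, 3 and 7 days after MCAO and 2 after LPS, where 23.3%, 9.53%, 2.62% and 16.4% of all genes passed. Of 14 kinases and phosphatases of filaments 12 were tested. The calls were 1 higher and 1 lower at 1 day after MCAO, 1 higher at 3 days and 2 higher after LPS. Of all genes 6.49%, 0.61% and 2.37% were called higher in these comparisons, and 970 of 15726 were lower at 1 day. Camk2d, a calcium and calmodulin dependent kinase, was higher at 1 day after MCAO (2.58 ± 0.37, adjusted p = 2.52e-05) and after LPS (1.86 ± 0.37, adjusted p = 0.00416). Cdk5 was lower at 1 day after MCAO (-0.84 ± 0.26, adjusted p = 0.0345), the mitotic kinase Cdk1 was higher at 3 days (2.12 ± 0.49, adjusted p = 0.0389), and Prkcd, a protein kinase C, was higher after LPS (0.87 ± 0.20, adjusted p = 0.0107).

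Of 21 transcription factors known at regulatory regions of Gfap, Vim or Nes 19 were tested. The 1-day MCAO comparison called 2 higher and 1 lower, where 1021 and 970 of all 15726 genes were. At 1 day after MCAO Fosl1, an AP-1 subunit, was higher by 3.28 ± 0.30 (adjusted p = 5.11e-08), Rela, an NF-κB subunit, was higher by 0.78 ± 0.19 (adjusted p = 0.00603), and the Notch target Hes5 was lower by a log2 difference of -1.14 ± 0.31 (adjusted p = 0.0142). At 3 days Fosl1 was the only one called (2.14 ± 0.37, adjusted p = 0.00665), and limma called 0 at 7 days or after LPS, with 0 and 5 of 19 at an unadjusted p below 0.05 (2.62% and 16.4% of all genes).

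The genes whose log2 intensity followed each filament gene most closely over the 30 arrays were also listed. They are a description of these arrays, which share treatments, groups and brightness sets. Gfap was followed by Osmr (Pearson r = 0.94), the oncostatin M receptor, then Ier3 (0.91), Niban2 (0.90), the sphingosine phosphate receptor S1pr3 (0.90) and the adhesion molecule Chl1 (0.89). Vim was followed by the transcription factor Cebpd, annexin Anxa2, Clic1, S100a10 and the sulfatase Sulf2, all with r = 0.91. Nes was closest to Fosl1 (0.95) and Vgf (0.94), and Synm to Sphkap and Osmr (both 0.89). Lmna was closest to Fam167a (0.94) and S100a10 (0.93), Lmnb1 to Depdc1b (0.82) and Nes (0.81), and Lmnb2 to Pus1 and Hcfc1 (both 0.85).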

How the data were processed

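The deposited values are linear probe set intensities, made by the authors with RMA per the submitters' processing notes; its version and a genome build are not given in the sources used here. They were taken as log2. Of 45037 probe sets, 34945 carried 1 gene symbol in the platform annotation, 932 several and 9160 none; each of 18193 genes was represented by its probe set of highest mean. Genes at log2 5 (intensity 32) or more on at least 3 arrays were kept (15726; 2467 were set aside). A linear model over the 8 groups with moderated variances was fitted with limma 3.58.1 in R 4.3.3, with Benjamini-Hochberg adjustment over all kept genes and a threshold of 0.05, and was tested on simulated data. Intervals are at 95%. Array number limits the precision. The members and lists were chosen with earlier results of these data known. Named genes are the 7 members, up to 4 called genes per list and comparison with the largest differences, and the genes most correlated with each member; Dag1 was added after its values were seen, as were the brightness sets of arrays.

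Replicate numbers were checked for pairing. The numbers in the descriptions paired the 1-day MCAO and sham arrays (correlation of same-numbered deviations 0.16 to 0.50 over 4 pairs); a replicate block was fitted on the compared groups alone, where it called 5136 genes against 5180 without the block, and left 1 MCAO array without a partner. The other numbers did not pair by this rule. Alternatives were quantile normalization, median centring, other filters, mean or every probe set, no shared probe sets, compared groups alone, array weights, robust variances, both blocks, each array left out, the brightness set, and, added after the data were seen, the 1-day comparison without 2 arrays high in neuron and endothelial markers. Scanner files were not used.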

Additional observations from a re-analysis of the deposited data

Results flagged for a closer look

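Among 44 groups of 4 or 5 values of the probe sets tested for an array far from the others, 3 held one, where chance alone flags about 1 in 20 groups. Gfap 1440142_s_at read 11.48 on LPS array 5, against 13.47 to 13.79 on the other LPS arrays. Vim read 11.76 on 1-day sham array 3 with 1450641_at, against 9.71 to 9.94 on the other sham arrays, and 11.19 with 1456292_a_at, against 8.89 to 9.22.

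The effects of MCAO and LPS at 1 day differed in 2 genes by the test of the difference itself: Nes by 1.79 (log2) and Lmna by 1.61.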

How the results depend on the processing

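Of the 5 genes called at 1 day after MCAO, all but Lmna stood in every alternative with a test, and Lmna fell out in 1. Without probe sets shared between transcripts or genes Lmna differed by 0.02 (adjusted p = 0.991). Its MCAO effect minus its LPS effect was then -0.00489 and not called by limma (adjusted p = 0.997). The sign of so small a value gives no direction. In the 1 against 1 comparison of the brighter arrays at 3 days Nes differed by -0.0442, without a test. Counts of the 7 genes called changed as follows. At 1 day (5 called) they were 7 with array weights, 6 with median centring, the groups alone or a block by either number, and 4 without shared probe sets. At 3 days (2 called) they were 4 with array weights, 3 with quantile normalization or the brightness set as covariate, 5 in the dimmer set alone, 1 with the mean of probe sets or without shared probe sets, and 0 with the 3-day groups alone or with a replicate block by either number. At 7 days (0 called) they were 2 with array weights, the groups alone or either block, and 1 with the mean of probe sets, quantile normalization, robust variances, the brightness set as covariate or a stricter filter. After LPS (2 called) they were 3 with array weights, 1 with the groups alone, the dimmer set alone or the mean of probe sets, and 0 with the block by title number. For MCAO minus LPS (2 called) they were 1 with the mean of probe sets or without shared probe sets. For 7 days minus 1 day (0 called) they were 3 with array weights, 2 with the groups alone and 1 with the mean of probe sets, and for 7 minus 3 days (0 called) 1 with array weights.

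Counts over all genes moved more. With array weights they were 6161, 1937 and 525 at 1, 3 and 7 days, 1660 after LPS, 2123 for MCAO minus LPS, and 259, 222 and 3144 for 3 minus 1, 7 minus 3 and 7 minus 1 days. With the compared groups alone they were 5180, 0, 205 and 65 for the same 4 comparisons with controls, 92 for MCAO minus LPS, 2 for 3 minus 1 and 1537 for 7 minus 1 days. The block by description number gave 5136, 0 and 188 at 1, 3 and 7 days, and the block by title number 3817, 0 and 188, with 34 after LPS. Every probe set as a row gave 3165 at 1 day, 7 at 7 days, 786 after LPS, and 4 and 109 for 3 minus 1 and 7 minus 1 days. The brightness set as covariate gave 17 at 7 days, 836 after LPS, 397 for MCAO minus LPS and 6 for 3 minus 1 days, and the dimmer set alone 867 at 3 days and 117 after LPS. At 7 days (4 genes) the count was 7 with the mean of probe sets, 2 with median centring or no filter, 8 with quantile normalization, 17 with robust variances and 13 with the stricter filter. For 3 minus 1 days (1 gene) it was 16 with the mean of probe sets, 5 with median centring, 3 with quantile normalization and 2 without shared probe sets, which also gave 68 genes at 3 days.

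Leaving out 1 array at a time gave 5 members at 1 day, 0 to 4 at 3 days, 0 at 7 days, 2 after LPS and 1 to 2 for MCAO minus LPS. The counts of all genes ran from 1367 to 1914 at 1 day, 3 (without sham array 2) to 650 (without MCAO array 3) at 3 days, 2 to 7 at 7 days, 225 (without saline array 4) to 990 (without LPS array 3) after LPS, 89 (without sham array 2) to 472 (without LPS array 5) for MCAO minus LPS, 0 to 27 for 3 minus 1 days, 15 to 68 for 7 minus 1 days and 0 to 5 for 7 minus 3 days. Where the numbers paired the arrays, at 1 day after MCAO, the block left the same 6 of the 7 genes called as the fit of those groups without it (the 5 and Lmnb1). The cause of these changes was not tested. Leaving out shared probe sets only replaced 1421654_a_at of Lmna by 1452212_at, which cannot show why these sets differ. The raw scans were not used, so no probe set has a background call here.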
